A study of Homo sapiens with 6 samples.

Results

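The 30 genes described here make or move sterols and fatty acids. They comprise 24 targets of the sterol regulatory element-binding proteins (SREBPs), the genes of these factors, SREBF1 and SREBF2, the sterol efflux and liver X receptor (LXR) genes ABCA1, ABCG1 and MYLIP, and CH25H. They were chosen by gene symbol from their known roles, with earlier results of these data known. The list does not cover every enzyme of the pathways. All 30 were among the 60498 genes of the count table, and 29 were among the 15126 genes kept for analysis, whose counts averaged at least 10 across the 6 libraries. CH25H, at a mean count of 5.17, fell below that minimum and was not tested with the other 29.

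RNA was sequenced from SKOV3, an established ovarian cancer cell line, in 3 lines that differ in STING1, the receptor that binds the cyclic dinucleotide 2’3’-cGAMP. The parent line (WT/HAQ) has a WT and a HAQ allele, the latter a common haplotype with several amino acid changes. WT/- and HAQ/- each kept a single allele, and each is 1 clone, grown by limiting dilution after deletion of the other allele with paired guide RNAs in a lentiviral CRISPR vector and puromycin selection. Each line gave 1 control library and 1 library from cells that received 2’3’-cGAMP (10 μg/mL, 30 min) in a buffer with the detergent digitonin, which binds cholesterol, followed by 4 h in fresh medium. How the control cells were handled is not given in the sources used here. No line and treatment has a replicate, and genotype, editing and clone cannot be told apart.

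The libraries held between 12444822 and 17608467 counts. STING1 (listed as TMEM173, ENSG00000184584) had 669 normalized counts (counts scaled to a common library size) in the WT/HAQ control library, 353 in WT/- and 213 in HAQ/-, and 1780, 553 and 403 after cGAMP. All 6 epithelial markers examined were present in every library, with KRT8 between 9067 and 14629 normalized counts, while the leukocyte markers PTPRC and CD3E stayed under 3 and CD68 was between 409 and 698. The endothelial markers PECAM1, VWF and CDH5 were at 17.7 or lower. KRT19 was at 5629 normalized counts in the WT/HAQ control library against 364 in WT/- and 414 in HAQ/-, so the lines differed in far more than STING1. The fibroblast markers COL1A1, DCN and LUM were detected in all 6 libraries and PDGFRB was at 4.01 normalized counts or lower.

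Cholesterol is built from acetyl-CoA through mevalonate, squalene and lanosterol. SREBPs sit in the membrane of the endoplasmic reticulum, where INSIG proteins hold them while sterols are plentiful; when sterols run low they travel to the Golgi, are cut there and release a factor that switches on the synthesis genes. SREBF2 encodes the form that mainly serves sterol synthesis and SREBF1 the forms that mainly serve fatty acid synthesis. LXRs are activated by oxysterols and switch on genes that export cholesterol or limit its uptake. CH25H makes the oxysterol 25-hydroxycholesterol and is known as an interferon-stimulated gene. STING1 itself lies in the endoplasmic reticulum and moves to the Golgi once it binds cGAMP.

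The promoters of 5 members are shown because they carry the shared element of this gene set, the CCAAT box, which is bound by NF-Y, a known partner of SREBPs. Each stretch is the 250 bases before a RefSeq transcription start in GRCh38.p14, written 5′ to 3′ along the gene, and capitals mark an exact match, on either strand, to CCAAT or to the sterol regulatory element TCACNCCAC. The gene begins a further 100 bases upstream in GENCODE release 44 for HMGCS1, 102 for INSIG1, 50 for LSS and 2 for MSMO1, so part of those stretches is transcribed in another annotated transcript.
HMGCS1 (chr5:43313413-43313662, minus strand): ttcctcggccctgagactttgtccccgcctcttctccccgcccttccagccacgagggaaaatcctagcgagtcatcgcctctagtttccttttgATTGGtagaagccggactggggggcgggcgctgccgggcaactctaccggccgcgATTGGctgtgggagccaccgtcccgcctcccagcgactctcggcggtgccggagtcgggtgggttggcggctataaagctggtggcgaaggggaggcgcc
INSIG1 (chr7:155297628-155297877, plus strand): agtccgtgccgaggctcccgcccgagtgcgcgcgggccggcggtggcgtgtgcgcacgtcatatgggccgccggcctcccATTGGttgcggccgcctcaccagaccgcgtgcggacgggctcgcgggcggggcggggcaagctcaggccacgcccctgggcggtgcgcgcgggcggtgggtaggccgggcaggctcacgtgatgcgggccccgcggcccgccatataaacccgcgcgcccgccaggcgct
LSS (chr21:46228775-46229024, minus strand): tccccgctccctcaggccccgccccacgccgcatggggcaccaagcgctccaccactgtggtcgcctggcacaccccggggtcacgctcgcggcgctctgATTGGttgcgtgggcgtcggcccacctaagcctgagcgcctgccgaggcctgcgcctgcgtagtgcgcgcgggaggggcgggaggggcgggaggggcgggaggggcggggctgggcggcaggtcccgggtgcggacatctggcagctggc
MSMO1 (chr4:165327419-165327668, plus strand): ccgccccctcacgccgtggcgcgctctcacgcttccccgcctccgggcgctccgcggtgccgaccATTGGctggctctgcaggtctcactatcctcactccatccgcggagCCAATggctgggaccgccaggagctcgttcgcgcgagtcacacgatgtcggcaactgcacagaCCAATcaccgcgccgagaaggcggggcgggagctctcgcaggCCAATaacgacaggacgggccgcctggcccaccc
SREBF2 (chr22:41832855-41833104, plus strand): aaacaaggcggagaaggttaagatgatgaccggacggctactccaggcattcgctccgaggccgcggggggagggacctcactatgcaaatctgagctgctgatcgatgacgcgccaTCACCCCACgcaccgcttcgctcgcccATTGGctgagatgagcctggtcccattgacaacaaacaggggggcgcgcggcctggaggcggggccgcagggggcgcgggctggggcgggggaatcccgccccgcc
In the HMGCS1 stretch the boxes begin 155 and 100 bases before the start and face the opposite strand, as does the single box of INSIG1 at 170 bases and that of LSS at 150. MSMO1 carries 4 boxes, at 185, 139, 76 and 34 bases. SREBF2 alone, of the 25 members with a promoter window in the table, held an exact sterol regulatory element, which begins 133 bases before its start, with a CCAAT box 106 bases before it. The matches to the pair of motifs do not overlap.

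Windows from 250 bases before to 50 bases after the start were present in the RefSeq table for 25 of the 30 members, 33 windows in all, and for 20 of the 24 SREBP targets. ACAT2, FDFT1, SQLE, FASN and ABCG1 had none there. A CCAAT box lay in 22 of the 28 windows of SREBP targets (78.6%), against 34.6% of all 35116 promoter windows. Counted by gene, 18 of 20 SREBP targets had one in any window (90%), against 39.7% of 27305 genes. CYP51A1 and PMVK were the SREBP targets without one. The exact sterol regulatory element was in 0 of 28 windows of SREBP targets and in 1.13% of all windows. With 1 mismatch allowed, 46.4% of the target windows held it, against 24.5% of all windows. The LXR response element, AGGTCA repeated after a spacer of 4 bases, matched 0 of the 33 member windows and 0.0199% of all windows. The interferon-stimulated response element, GAAA repeated after a spacer of 2 bases, matched 0 of 33 and 3.57%.

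In the control libraries, HMGCS1, INSIG1, FDFT1 and SCD were the most abundant members per length of transcript. On a scale of counts per kilobase of the canonical transcript, corrected for library size, HMGCS1 was at 217 in the parent, 314 in WT/- and 171 in HAQ/-, and INSIG1 at 189, 308 and 128. FDFT1 was at 168, 246 and 156, and SCD at 148, 171 and 163. Of the 29 analysed members, HSD17B7 (4.11, 10.3 and 3.15), MVK (5.4, 9.06 and 3.99) and ABCG1 (3.84, 0.241 and 2.12) were the lowest on this scale in the parent and in HAQ/-. In WT/- the order differed, with EBP at 4.36 and ABCA1 at 8.4 also below MVK. HSD17B7 levels are uncertain, because its 2 annotated pseudogenes together had 105% of its own count over the 6 libraries and estimated counts can split reads between such copies.

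The control libraries were compared first, to see how the lines stood before any cGAMP. Most SREBP targets were higher in WT/- than in the parent and lower in HAQ/- than in WT/-, while the ratios of HAQ/- over the parent were small. On the log2 scale, the median ratio of WT/- over WT/HAQ was 0.54 over the 24 targets, with 21 above 0, against a median near 0 for all genes. Of the 24, 11 were at least 1.5-fold higher in WT/-, where 13.0% of all genes were, and 1 (EBP) was at least 1.5-fold lower, where 9.90% were. In HAQ/- over WT/HAQ the median was -0.14 and 0 of the 24 passed 1.5-fold in either direction, where 7.40% of all genes were higher and 8.62% lower. In HAQ/- over WT/- the median was -0.70, with 15 of the 24 at least 1.5-fold lower (15.3% of all genes) and 0 higher (11.7%). Both comparisons with WT/-, and its cGAMP ratios below, use the same single control library of WT/-, so they are not separate evidence. In the same control libraries the ratios of WT/- over WT/HAQ were above 0 for all 3 analysed fibroblast markers (median 0.36) and below 0 for all 6 epithelial markers (median -0.28), and those of HAQ/- over WT/- had medians of -0.06 and -0.05. The part of these markers in the line differences was not tested.

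**Figure D1:**
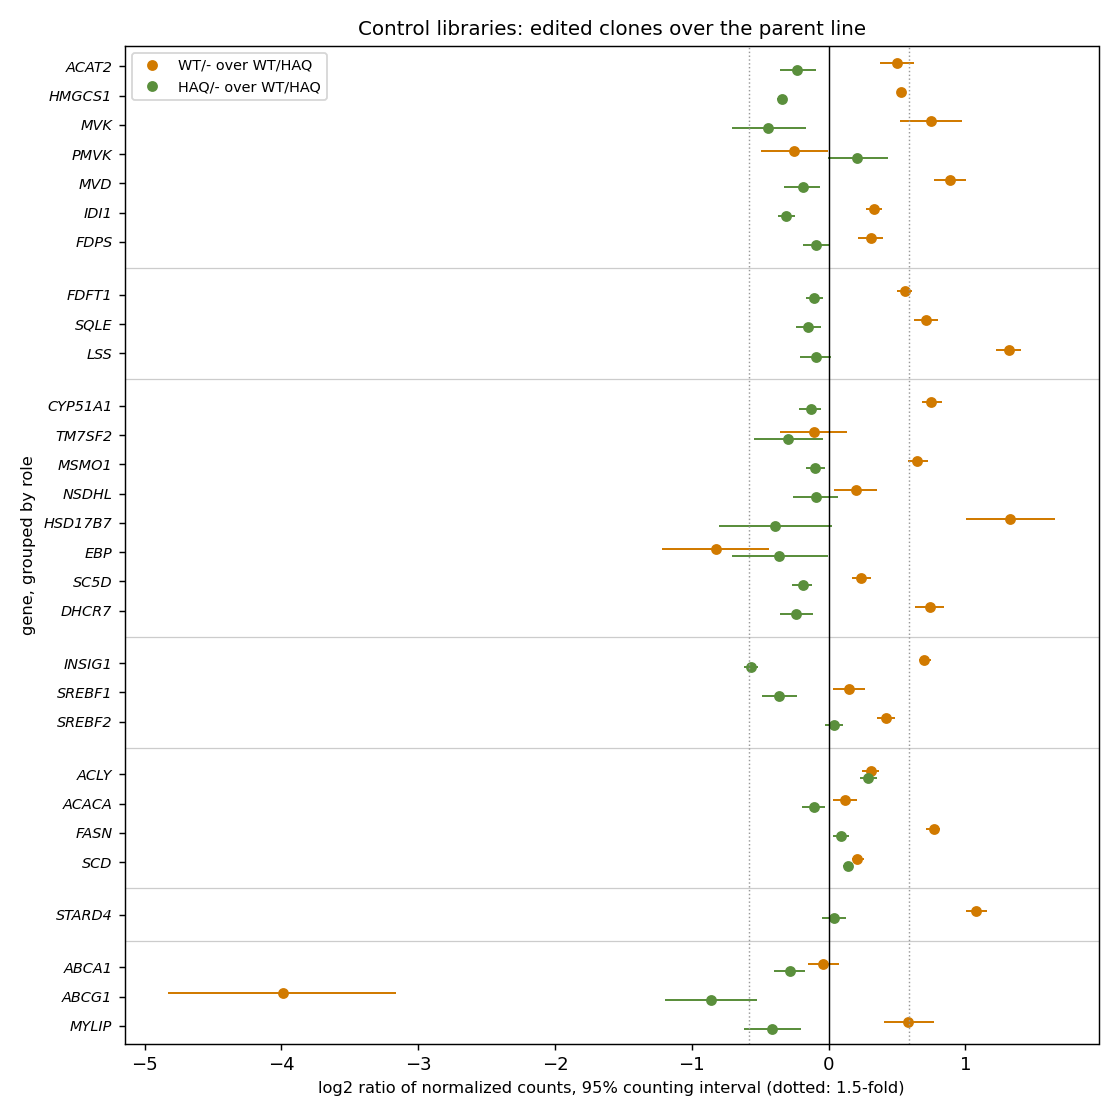
Log2 ratio of normalized counts in the control library of each edited clone over that of the WT/HAQ parent, for the 29 analysed genes by role. Points are single libraries compared, lines are 95% counting intervals and dotted lines mark 1.5-fold; most WT/- points lie to the right of 0 and most HAQ/- points slightly to the left, with ABCG1 at -3.99 and -0.86.

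A test was possible only by taking the control and the cGAMP library of a line as its repeats, in edgeR's quasi-likelihood fit with line and treatment as terms, 2 residual degrees of freedom and Benjamini-Hochberg adjustment over 15126 genes. The line term is fitted over both libraries of a line, so its calls are not tests of the control ratios above. Its log2 values can differ from those ratios: for HMGCS1, HAQ/- over WT/HAQ was -0.34 in the control libraries and 0.12 in the fit. Between WT/- and WT/HAQ, 13 members were called higher, where 4.99% of all genes were, and 1 member (ABCG1) lower, where 3.81% were. Between HAQ/- and WT/HAQ, 0 of 29 were called higher (0.377% of all genes) and 0 lower (0.846%), with 2 (8.03%) and 4 (10.7%) at an unadjusted p under 0.05. DESeq2 called 0 higher (1.28% of genes with an adjusted p) and ABCG1 lower (2.67%). Between HAQ/- and WT/-, 16 members were called lower, where 11.1% of all genes were, and 1 (PMVK) higher, where 7.94% were. Both comparisons with WT/- share its libraries, so their calls are not separate evidence. These counts depended on the fit: without the treatment term 2 members were called higher in WT/- than in WT/HAQ (0.760% of all genes) and 0 lower (0.873%), and 4 lower in HAQ/- than in WT/- (2.44%), while with only WT/- and WT/HAQ in the fit 20 were higher (9.90%) and 2 lower (7.09%). The calls that held without the treatment term were those of HSD17B7 and STARD4 in both comparisons and of ACAT2 and SREBF1 between HAQ/- and WT/-. The members' values follow in the order of the pathway. Throughout, a pair of values joined by "to" gives normalized counts in the control and in the cGAMP library of a line.

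The mevalonate arm has 7 members, of which 3 were called higher in WT/- than in WT/HAQ (4.99% of all genes) and 5 lower in HAQ/- than in WT/- (11.1%). HMGCS1, which makes the precursor that is reduced to mevalonate, stood at 18098 to 7323 in the parent, 26205 to 18489 in WT/-, then 14317 to 11242 in HAQ/-. Its cGAMP ratio in WT/HAQ, -1.31 on the log2 scale (95% counting interval -1.34 to -1.27), was the furthest below 0 of the 24 SREBP targets. In WT/- the ratio was -0.50 (-0.53 to -0.47) and in HAQ/- it was -0.35 (-0.38 to -0.31), so all 3 intervals are apart. These intervals, here and below, cover counting error only.

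ACAT2, which joins acetyl-CoA units, stood at 909 to 746 in the parent, 1286 to 1218 in WT/-, then 777 to 689 in HAQ/-. Both WT/- libraries were above the other 4 libraries, and the line difference was called against WT/HAQ (log2 0.60 ± 0.09 SE, edgeR adjusted p = 0.0269) and against HAQ/- (adjusted p = 0.00926). The kinase MVK stood at 239 to 177, 400.4 to 294 and 176 to 147 in WT/HAQ, WT/- and HAQ/-. MVD, which decarboxylates mevalonate diphosphate, stood at 924 to 603, 1715 to 998 and 808 to 712. For MVD the cGAMP library of WT/- was still above the control library of the parent. MVK and MVD were both called higher in WT/- than in WT/HAQ (log2 0.74 and 0.82) and lower in HAQ/- than in WT/- (log2 -1.10 and -0.79).

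IDI1, the isomerase that makes the second 5-carbon building block, was at 4804 to 3544 in the parent, 6036 to 5509 in WT/-, then 3882 to 3467 in HAQ/-. FDPS, which joins these blocks to farnesyl diphosphate, was at 1870 to 1662, 2312 to 2106 and 1760 to 1731. Both were called lower in HAQ/- than in WT/-, IDI1 by more (log2 -0.65) than FDPS (log2 -0.34). PMVK, the second kinase of the arm, went the other way, at 281 to 304, 236 to 256 and 325 to 337, and was called higher in HAQ/- than in WT/- (log2 0.43 ± 0.11 SE, edgeR adjusted p = 0.0475). The PMVK call was lost in 4 of 5 alternative fits (adjusted p from 0.047 to 0.199) and that of FDPS in all 5 (adjusted p from 0.0511 to 0.131), in edgeR or DESeq2. The 3 cGAMP ratios of PMVK lay between 0.05 and 0.12, each with an interval that holds 0.

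All 3 genes of squalene synthesis and ring closure were at least 1.5-fold lower in the HAQ/- control library than in WT/-, where 15.3% of all genes were. FDFT1, squalene synthase, stood at 5320 to 3719 in the parent, 7818 to 6587 in WT/-, then 4943 to 4718 in HAQ/-. SQLE, the epoxidase that commits squalene to sterols, stood at 1961 to 1131, 3212 to 2026 and 1770 to 1647. The SQLE ratio after cGAMP was -0.79 (-0.90 to -0.69) in the parent, -0.66 (-0.75 to -0.58) in WT/-, against -0.10 (-0.20 to -0.01) in HAQ/-. The intervals of the 2 lines with a WT allele overlapped, and the ratio of HAQ/- lay outside both.

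LSS, which closes the ring to lanosterol, stood at 1353 to 1011 in the parent, 3367 to 2454 in WT/-, then 1268 to 1242 in HAQ/-. Both WT/- libraries were higher than the other 4 libraries, and LSS had the largest called difference from the parent among SREBP targets (log2 1.30 ± 0.13 SE, edgeR adjusted p = 0.012).

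Of the 8 genes of the steps after lanosterol, 4 were called higher in WT/- than in WT/HAQ (4.99% of all genes) and 5 lower in HAQ/- than in WT/- (11.1%). CYP51A1, the lanosterol demethylase, was at 2781 to 1957 in the parent, 4679 to 3616 in WT/-, then 2535 to 2332 in HAQ/-. MSMO1, a methyl sterol oxidase, was at 3110 to 1819, 4895 to 3753 and 2911 to 2511. For each of these genes the order of the 3 control libraries was the same, WT/- highest and HAQ/- lowest. DHCR7, which makes cholesterol from 7-dehydrocholesterol, was at 1150 to 860.2, 1919 to 1517 and 977 to 953, and SC5D, the desaturase before it, at 3399 to 2818, 4019 to 3963 and 2976 to 2543. SC5D was the only SREBP target whose cGAMP ratio was lower in HAQ/- (-0.23) than in WT/- (-0.02) with a counting interval of the difference (0.10 to 0.31) that excludes 0.

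HSD17B7, a ketosteroid reductase with the pseudogene uncertainty given above, had 111 counts in the WT/HAQ control library and 98 after cGAMP, 264 and 158 in WT/-, and 86 and 71 in HAQ/-. Its line differences were called (log2 1.26 in WT/- against WT/HAQ, log2 -1.58 in HAQ/- against WT/-), and its cGAMP ratios, from -0.22 to 0.05, all had intervals that hold 0. EBP, a sterol isomerase, had 153 and 91 counts in the parent, 82 and 26 in WT/-, and 121 and 111 in HAQ/-. Among the control libraries WT/- was the lowest for EBP, and its cGAMP ratios in the lines with a WT allele were -0.64 (-1.02 to -0.27) and -1.14 (-1.77 to -0.51), against 0.20 (-0.17 to 0.57) in HAQ/-. NSDHL had ratios from -0.35 to -0.00, and TM7SF2, a sterol reductase, from 0.03 to 0.30.

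**Figure D2:**
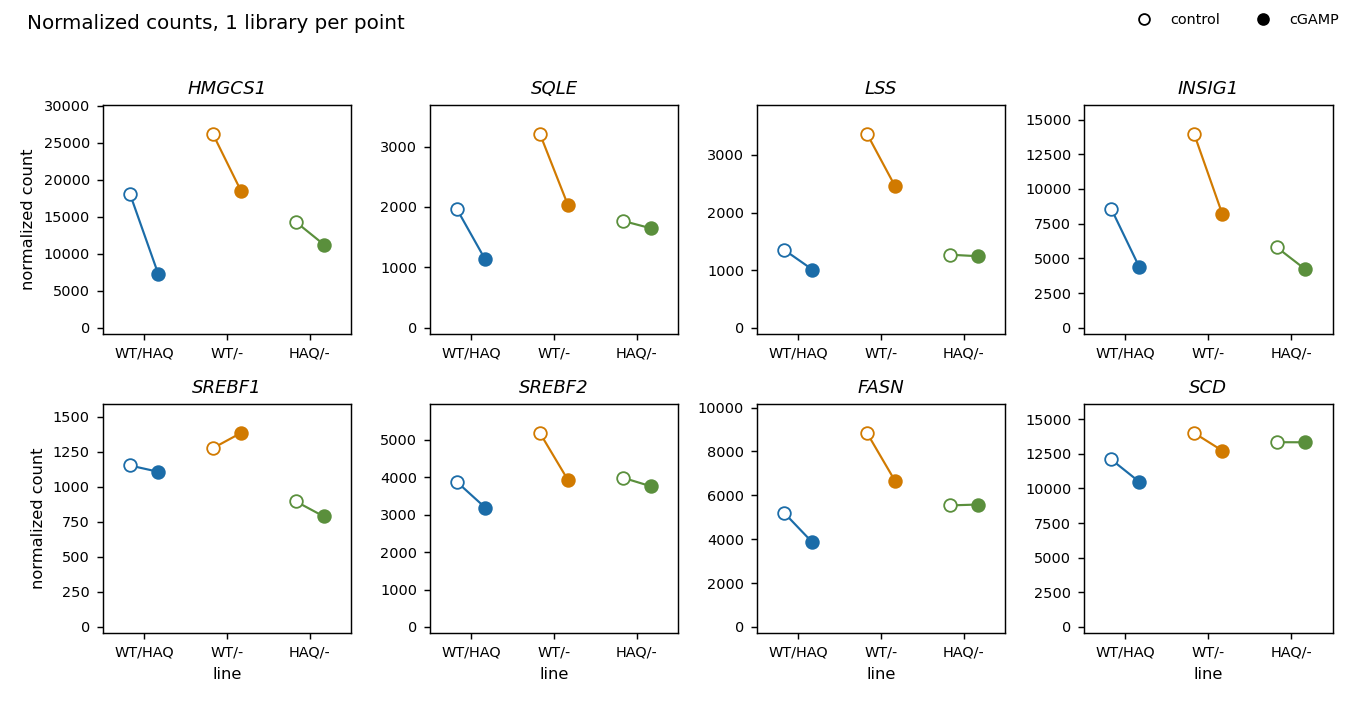
Normalized counts of 8 members in the control (open) and cGAMP (filled) library of each line, 1 library per point, linear axes from 0. HMGCS1, SQLE, LSS, INSIG1, SREBF2, FASN and SCD are highest in the WT/- control library, and SCD spans from 10473 to 14010 over the 6 libraries.

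Among the regulators, INSIG1, itself an SREBP target, was the member with a called treatment difference. It stood at 8578 to 4363 in the parent, 13978 to 8206 in WT/-, then 5786 to 4219 in HAQ/-. INSIG1 was lower after cGAMP in all 3 lines, with ratios of -0.98 (-1.03 to -0.92), -0.77 (-0.81 to -0.73) and -0.46 (-0.51 to -0.40). It was also called higher in WT/- than in WT/HAQ (log2 0.80) and lower in HAQ/- than in WT/- (log2 -1.11).

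SREBF2 was at 3874 to 3191 in the parent, 5187 to 3923 in WT/-, then 3991 to 3760 in HAQ/-. Its cGAMP ratios were -0.28, -0.40 and -0.09, and no interval held 0. SREBF1 was at 1152 to 1107, 1275 to 1384 and 896 to 788, with ratios of -0.06 (-0.17 to 0.06), 0.12 (0.00 to 0.23) and -0.18 (-0.32 to -0.05), of which the first has an interval that holds 0 and the second one that begins at it. SREBF1 was called lower in HAQ/- than in WT/- (log2 -0.66 ± 0.10 SE, edgeR adjusted p = 0.0168), and for SREBF2 no line test was called.

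The median log2 ratio of the 4 fatty acid synthesis genes, cGAMP over control, was -0.23 in the parent, -0.19 in WT/- and 0.00 in HAQ/-, against -0.43, -0.13 and -0.17 for the mevalonate arm. FASN, the fatty acid synthase, stood at 5202 to 3858 in the parent, 8841 to 6645 in WT/-, then 5538 to 5578 in HAQ/-. It was called higher in WT/- than in WT/HAQ (log2 0.77 ± 0.13 SE, edgeR adjusted p = 0.0339). SCD, which places the double bond of oleate, stood at 12095 to 10473, 14010 to 12732 and 13341 to 13336. ACACA, the acetyl-CoA carboxylase, had cGAMP ratios of -0.26, -0.25 and -0.05, and ACLY, which makes cytosolic acetyl-CoA from citrate, of -0.12, -0.04 and 0.06. STARD4, a carrier of cholesterol between membranes, stood at 2148 to 1601, 4538 to 4211 and 2214 to 2161, and was called higher in WT/- than in WT/HAQ (log2 1.23 ± 0.12 SE, edgeR adjusted p = 0.0111).

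Next, the cGAMP library of each line was set against the control library of that line. More SREBP targets were below their control than above it in every line, and the medians were furthest from 0 in the parent and nearest in HAQ/-. In WT/HAQ the median log2 ratio of the 24 was -0.42, with 22 below 0, 6 lowered at least 1.5-fold (12.3% of all genes) and 0 raised (12.9%). In WT/- the median was -0.25, with 22 below 0, 4 lowered (8.79%) and 0 raised (11.9%). In HAQ/- the median was -0.04, with 18 below 0, and 0 were lowered (5.79%) or raised (6.77%) by 1.5-fold. The medians of all genes lay between -0.01 and -0.00 in the 3 lines. The median ratios of the cell type markers moved with cGAMP in the same order of lines. The 3 fibroblast markers were at 0.45 in the parent, 0.29 in WT/-, then 0.04 in HAQ/-. The 6 epithelial markers were at -0.17, -0.09 and -0.03, and CD68 alone at 0.71, 0.60 and 0.30. Single markers did not all keep the order, as LUM was at 0.45, 0.29 and 0.38 and CDH1 at 0.55, -0.02 and 0.39. Of the 6 epithelial markers, 3 had their lowest ratio in WT/HAQ and highest in HAQ/-, as did 20.4% of all genes. Their part in the ratios of the SREBP targets was not tested. HAQ/- thus also had the smallest share of all genes past 1.5-fold in either direction.

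The 6 targets lowered at least 1.5-fold in WT/HAQ were HMGCS1, MVD, SQLE, MSMO1, EBP and INSIG1. Of these, MVD, SQLE, EBP and INSIG1 were also lowered at least 1.5-fold in WT/- and not by that fold in HAQ/-, a pattern that 3.51% of all genes had. INSIG1 was still below its control in HAQ/-, at -0.46 (-0.51 to -0.40). A ratio below 0 in all 3 lines was found for 18 of 24 targets (75%), against 26.3% of all genes, and a ratio above 0 in all 3 lines for PMVK and TM7SF2, against 23.7% of all genes. None of the 24 was lowered 1.5-fold in all 3 lines, where 1.34% of all genes were.

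**Figure D3:**
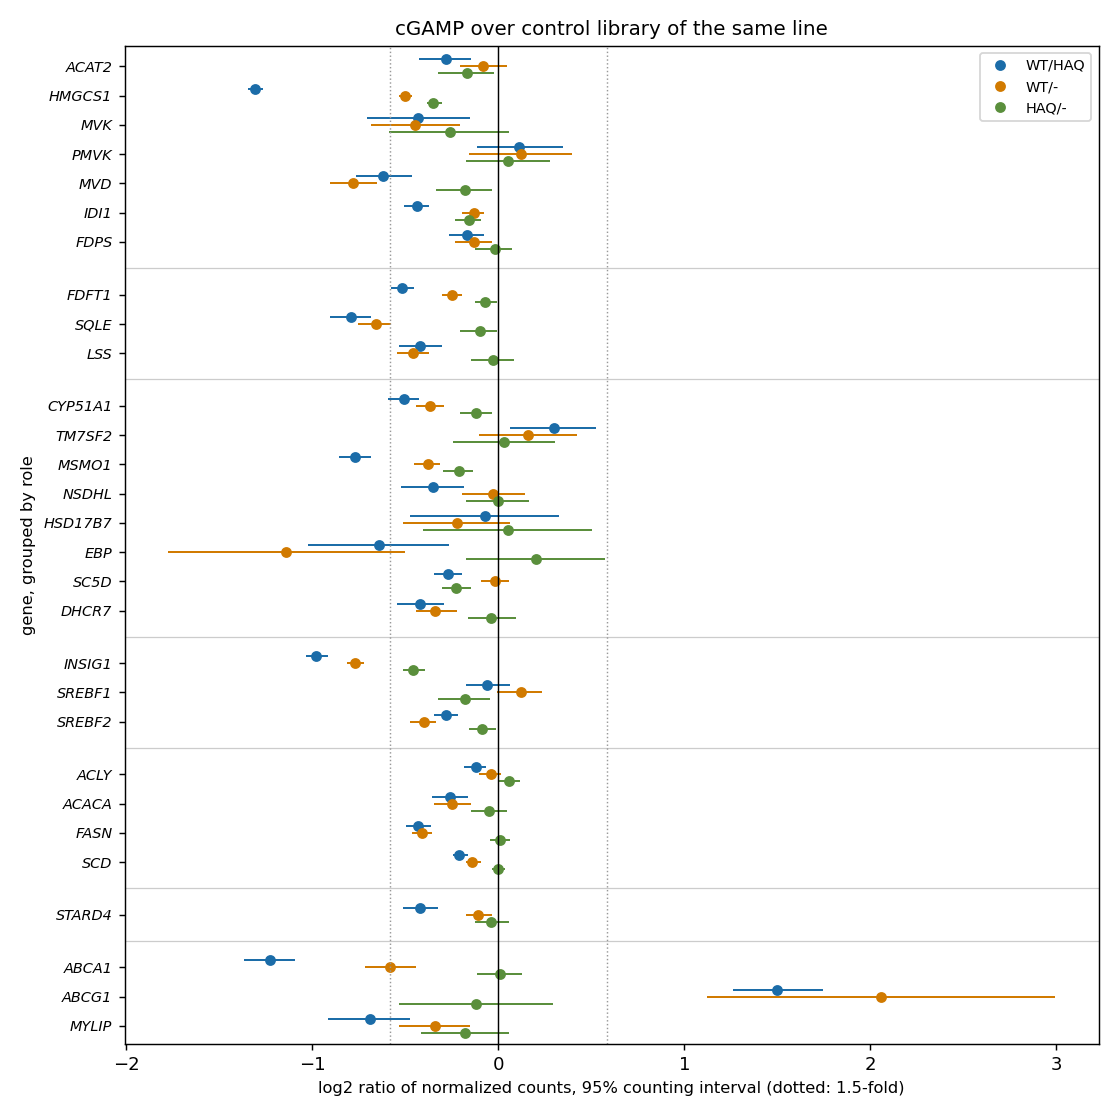
Log2 ratio of normalized counts, cGAMP over control library, for the 29 analysed genes by role and line. Points are single pairs of libraries, lines are 95% counting intervals and dotted lines mark 1.5-fold; HAQ/- points lie between -0.46 and 0.20, while WT/HAQ points reach -1.31 and ABCG1 lies far to the right of the 1.5-fold line in WT/HAQ and WT/-.

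The distance between lines was taken gene by gene. The ratio in WT/HAQ minus that in HAQ/- had a median of -0.36 over the 24 targets, was negative for 22 and had a counting interval below 0 for 18 and above 0 for 0. Over all genes the median was -0.01, 50.8% of the differences were negative, and 19.7% of the intervals lay below 0 and 16.7% above. In WT/- minus HAQ/- the median was -0.17, with 19 negative, 14 intervals below 0 and 1 above it, against 0.02, 47.7%, 14.5% and 16.1% over all genes. In WT/HAQ minus WT/- the median was -0.08, with 18 negative, 11 intervals below 0 and 0 above it, against -0.03, 54.2%, 18.4% and 12.6% over all genes. Intervals of counting error are narrower for genes with more counts, and the genes of the list were not matched to others on their counts. Each pair of these differences shares the libraries of 1 line, so they are not separate evidence, and with 1 library per condition the differences could not be tested.

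Across the lines, the treatment was tested with the line as a block, again with edgeR's quasi-likelihood test. INSIG1 was the only member called lower (log2 -0.73 ± 0.11 SE, adjusted p = 0.0439, lower in 3 of 3 lines), where 0.959% of all genes were, and 0 of 29 were called higher, where 2.27% were. At an unadjusted p under 0.05, 15 members were lower (13.6% of all genes) and 0 higher (11.6%). DESeq2 called INSIG1, HMGCS1 and MVD lower (3.93% of genes with an adjusted p) and 0 higher (5.20%). Without the HAQ/- libraries, 13 members were called lower (8.65% of all genes) and ABCG1 higher (8.50%). Without the WT/HAQ libraries no member was called, where 0.331% of all genes were lower and 0.899% higher, without the WT/- libraries no gene at all was called, and the adjusted p of INSIG1 ran from 6.27e-05 to 0.552 over the alternatives.

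ABCA1, ABCG1 and MYLIP, all LXR targets, had unlike ratios. ABCA1 (chr9:104781006-104928155, minus strand), the pump that loads cholesterol onto apolipoprotein A-I, stood at 1399 to 597 in the parent, 1364 to 911 in WT/-, then 1151 to 1155 in HAQ/-. Its ratios were -1.23 (-1.36 to -1.10), -0.58 (-0.71 to -0.45) and 0.01 (-0.11 to 0.12), so the 3 control libraries were near each other and the cGAMP libraries spread apart. MYLIP, a ubiquitin ligase that lowers uptake of lipoprotein cholesterol, stood at 412 to 255, 618 to 488 and 309.7 to 274, with ratios of -0.69, -0.34 and -0.18. MYLIP was called higher in WT/- than in WT/HAQ (log2 0.75) and lower in HAQ/- than in WT/- (log2 -0.91), the same order of lines as most SREBP targets.

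ABCG1 (chr21:42199689-42297244, plus strand), which passes cholesterol to lipoproteins, had the opposite direction from ABCA1. It had 202 counts in the WT/HAQ control library and 533 after cGAMP, 12 and 35 in WT/-, and 113 and 83 in HAQ/-. After cGAMP, ABCG1 was at 2.84 times control in WT/HAQ (log2 interval 1.27 to 1.74), 4.17 times in WT/- (1.13 to 2.99) and 0.922 times in HAQ/- (-0.53 to 0.29). Both WT/- libraries were below the other 4 libraries, and ABCG1 was called lower in WT/- than in WT/HAQ (log2 -3.59 ± 0.52 SE, edgeR adjusted p = 0.0249), a call lost without the treatment term (adjusted p = 0.112).

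CH25H, a gene of a single exon at chr10:89205629-89207317 on the minus strand (GENCODE release 44, GRCh38), was at 0 counts in all 3 control libraries. After cGAMP it had 20 counts in the parent, 11 in WT/- and still 0 in HAQ/-. Against a floor of 3 counts per library this is at least 7.17-fold higher in WT/HAQ and at least 5.25-fold higher in WT/-, bounds that leave out the counting error of the cGAMP library itself. The counting intervals of the log2 ratio, which include it, reach down to 2.49 and 2.03. No fold can be given for HAQ/-. A count of 0 allows up to 3 counts, so a smaller response in HAQ/- was not detectable at this depth.

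**Figure D4:**
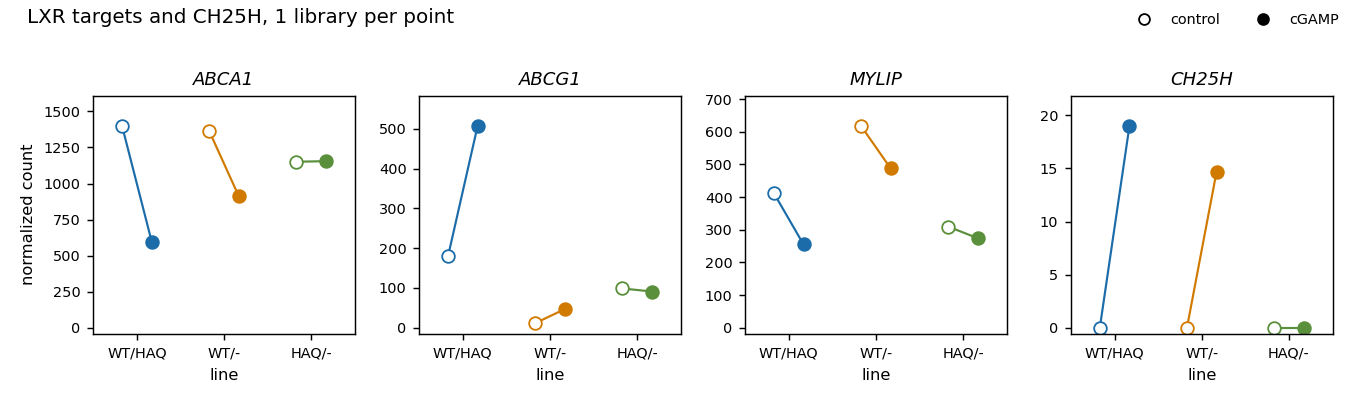
Normalized counts of ABCA1, ABCG1, MYLIP and CH25H in the control (open) and cGAMP (filled) library of each line, 1 library per point, linear axes from 0. ABCA1 and ABCG1 run in opposite directions in WT/HAQ and WT/-, CH25H appears after cGAMP in these lines alone, and the HAQ/- pairs lie closest together.

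Other genes of the same processes give the setting, taken from lists of known roles that were chosen with earlier results of these data known. Their treatment calls stand against the same shares of all genes as those of the members. Of 7 genes of SREBP processing, such as SCAP, 0 were called for treatment by edgeR, with 1 lower at an unadjusted p under 0.05, and DESeq2 called 0. Of 13 further lipid synthesis genes, 0 were called, with 1 gene higher and 3 lower before adjustment (p under 0.05), and DESeq2 called 1 higher and 1 lower. LPIN1, a phosphatidate phosphatase and known SREBP target, was lowered at least 1.5-fold in all 3 lines, at 1077 to 391 in the parent, 1134 to 719 in WT/-, then 713 to 474 in HAQ/-, with an edgeR adjusted p of 0.0722. The 13 genes as a list had median log2 ratios of -0.07, -0.02 and -0.01 in these lines, with 6 above 0 and 7 below in each. ACSL3 was at 2.71, 2.83 and 1.39 times control, and ACSS2 at 1.85, 1.2 and 1.04 times. Of 8 further LXR and oxysterol genes, 0 were called, with 1 gene higher and 2 lower before adjustment (p under 0.05), and DESeq2 called 1 lower. Of 9 sterol transport genes, 1 was called higher: GRAMD1B, which carries cholesterol from the plasma membrane to the endoplasmic reticulum. At an unadjusted p under 0.05, 2 of the 9 were higher, GRAMD1B and GRAMD1A (log2 0.44 ± 0.10 SE, edgeR adjusted p = 0.0795), and 0 lower, and DESeq2 called 1 higher and 0 lower. GRAMD1B had 12 counts in the WT/HAQ control library and 467 after cGAMP, 8 and 78 in WT/-, and 5 and 27 in HAQ/- (log2 4.43 ± 0.46 SE, edgeR adjusted p = 0.0167). No sterol transport gene was called without the line block or without the libraries of WT/HAQ or of WT/-.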

How the data were processed

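RNA from the 6 SKOV3 cell conditions, 1 library each, was measured by RNA sequencing. Per the labels and the submitters' processing notes, the authors used STAR and RSEM with GRCh38 (hg38) and deposited expected counts, which are estimated counts per gene without normalization; versions and the annotation release are not given in the sources used here. Values were rounded to whole counts (92.7% to 93.3% were whole already), giving totals from 12444822 to 17608467. Genes averaging at least 10 counts were kept (15126) and library sizes scaled by TMM (edgeR 4.0.16, R 4.3.3), with factors from 0.940 to 1.052. Normalized counts refer to the geometric mean of the scaled library sizes.

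Each cGAMP library was set against the control library of its line, and the control libraries against each other, after counts under 3 were set to 3. These ratios have no replicate and no test. Wilson intervals at 95% cover counting error only. Genes were called raised or lowered at 1.5-fold. Treatment and line were tested with edgeR's quasi-likelihood F test in an additive fit of both (2 residual degrees of freedom), with Benjamini-Hochberg adjustment over all 15126 genes and a threshold of 0.05. The p-values rest on the spread between lines or between treatments, not on replicate cultures. DESeq2 1.42.0 was an alternative.

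The 30 members and the other lists were chosen with earlier results of these data known. All members are described by role. Those called by a test, moved 1.5-fold in all 3 lines, or of special interest (INSIG1, HMGCS1, SQLE, SREBF1, SREBF2, FASN, SCD, ABCA1, ABCG1, MYLIP and CH25H) are given in every library, and other pathway genes are named where they pass the treatment test or move 1.5-fold in all 3 lines. Promoter windows are from RefSeq (GRCh38.p14) and matched by symbol, gene positions and transcript lengths from GENCODE release 44. Of the marker genes, 1 is not reported here. Steps were tested on simulated data. All other steps used Python 3.11.15, pandas 2.3.3, numpy 2.4.6 and matplotlib 3.10.9.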

Additional observations from a re-analysis of the deposited data

Results flagged for a closer look

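ACLY, the ATP citrate lyase, was singled out because its counting intervals lay on opposite sides of 0 in a pair of lines. Its log2 ratio of cGAMP over control was -0.12 (-0.18 to -0.07) in WT/HAQ and 0.06 (0.01 to 0.11) in HAQ/-, from 4450 and 4084 normalized counts in the parent and 5458 and 5683 in HAQ/-. The difference was not tested, because each condition has 1 library, and the intervals cover counting error only.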

How the results depend on the processing

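Over the alternatives tried, 186 values for lists and counts of calls stayed within their error or within 1.5 times, and 31 moved. Of the values of single members, 1747 kept their direction and side of the threshold or stayed within their error, 33 moved, 35 became weaker, 32 stronger and 9 changed sign, all 9 for tests that were not called. As each line was left out of the treatment test, SREBF1 ran from -0.11 to 0.03 on the log2 scale (above 0 without HAQ/-) and ACLY from -0.09 to 0.01 (above 0 without WT/HAQ). Between HAQ/- and WT/HAQ, MVD became -0.01 without the treatment term and ACACA 0.00 with DESeq2 size factors, the DESeq2 test or only those lines. Between HAQ/- and WT/-, SCD became 0.00 with DESeq2 size factors and the DESeq2 test and 0.02 with a mean count of at least 1. Scaling by DESeq2 size factors or total counts, a prior count of 2, a floor of 10 counts, mean counts of at least 1 or 50 and thinning of all libraries to equal totals moved the list medians by no more than the counting error, except that with total counts the median of HAQ/- over WT/- became -0.60.

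The share of all genes stands after each count. With a fold of 2 in place of 1.5, the SREBP targets lowered by cGAMP numbered 1 in WT/HAQ (5.36%) and 1 in WT/- (3.48%), those higher in WT/- than in WT/HAQ 3 (5.72%) and lower 0 (4.26%), and those lower in HAQ/- than in WT/- 6 (7.62%). With a fold of 1.2, cGAMP lowered 17 in the parent (26.6%), 11 in WT/- (22.5%) and 3 in HAQ/- (17.3%) and raised 1 in WT/HAQ (24.2%). At that fold 17 were higher in WT/- than in WT/HAQ (27.5%), 1 was higher (19.0%) and 7 lower (21.1%) in HAQ/- than in WT/HAQ, and 2 were higher in HAQ/- than in WT/- (26.5%). These shifts follow from the threshold itself.

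The treatment test depended on the lines: members called lower ranged from 0 to 13 and higher from 0 to 1 as each line was left out (all genes 0% to 8.65% and 0% to 8.50%), and were 3 lower by DESeq2 (3.93%) and 0 without the line block (0.0264%). No paired analysis was possible because the labels give no replicate numbers, beyond the pairing of libraries by line that the main test already has. Between WT/- and WT/HAQ, leaving out the treatment term gave 2 higher (0.760%) and 0 lower (0.873%), and fitting only those lines 20 higher (9.90%) and 2 lower (7.09%). Between HAQ/- and WT/HAQ, DESeq2 called 1 lower (2.67%). Between HAQ/- and WT/-, 0 were higher with a mean count of at least 1 (5.99%), without the treatment term (2.25%) or with only those lines (6.74%), and 4 were lower without the treatment term (2.44%). The cause was not tested. With 1 mismatch allowed, the sterol regulatory element matched 46.4% of target windows and 24.5% of all windows.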
